A study of Mus musculus with 6 samples.

Results

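The matrix metalloproteinases (MMPs), the ADAM and ADAMTS proteases and their inhibitors, the TIMPs, were examined in mouse dorsal root ganglia after vincristine. Members were taken by gene symbol alone, as every Mmp, Adam, Adamts and Timp symbol of the count tables with at least 10 reads summed over the 6 libraries. Of 38926 symbols 79 matched the names, and 57 of those met the read minimum. These were 17 Mmp, 17 Adam, 19 Adamts and 4 Timp genes. The other 22 symbols, 6 Mmp and 16 Adam, lay below it. The members nearest to the minimum from above were Mmp3 with 21 reads, Mmp27 with 16, Adamts13 with 15 and Adam18 with 14. Just below it were Adam3 with 7 reads and Adam28 with 4.

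Ganglia of lumbar levels 3, 4 and 5 came from wild-type female C57BL/6 mice aged 8 to 10 weeks, on the side of the treated paw. One group had received vehicle and the other vincristine into the paw, a cumulative 40 µg per the labels, although the table names read 10 µg. Each of the 3 samples per group was a pool of 4 animals, so differences between single animals cannot be seen. Vincristine is a vinca alkaloid that binds tubulin and is used against cancer, and the comparison asks which transcripts of the ganglia differ after it.

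MMPs, ADAMs and ADAMTS proteases are zinc enzymes made as inactive precursors. MMPs cut collagens and other matrix proteins, many ADAMs release the outer part of membrane proteins (shedding), and ADAMTS enzymes act on proteoglycans, procollagens and other matrix proteins. Some ADAMs have lost the catalytic site and serve as receptors. TIMPs bind the active site and block it. After nerve injury, MMP9 and MMP2 are known for their part in the breakdown of the blood-nerve barrier and in neuropathic pain.

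The libraries held 12374331 to 26346304 reads counted in genes, and vincristine replicate 1 was the shallowest. That library had 24.8% of its tallied alignments outside genes, against 14.8% to 17.03% in the other 5. It also stood apart from them on the first principal component, so the results it moves are given with and without it. The summed level of the 11 neutrophil markers found in the tables was 802 to 1394 CPM (counts scaled to the depth of the library) in vehicle and 2498 to 7712 CPM in vincristine, highest in replicate 1. The summed level of 15 sensory neuron markers was 7901 to 10219 CPM in vehicle and 3413 to 9040 CPM in vincristine, lowest in replicate 1. No marker of either list was at 0. Macrophage and erythroid markers were likewise higher without overlap, and 6 B cell markers lower (31.7 to 64.6 CPM against 3.03 to 6.27 CPM). Satellite glia markers (2548 to 2787 and 2526 to 2829 CPM) and Schwann cell markers (11425 to 16102 and 10453 to 14577 CPM) were high in both groups, as were the neuron markers, and their ranges overlapped. In bulk tissue, fewer cells of a type and less RNA per cell cannot be told apart.

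The promoters of Adam8, Mmp8 and Timp1, the called members that had a promoter window, are shown first, together with those of the stromelysin Mmp3 and the collagenase Mmp13, which lie in 1 gene cluster with Mmp8. RefSeq (GRCm38.p6) promoter windows were at hand for 35 of the 57 members and were searched over the 250 bases before the start site. The AP-1 motif TGANTCA, bound by Fos, Jun and related factors, reads almost the same on either strand, and both were searched. The GC box GGGCGG, bound by Sp1-like factors, was likewise searched on both strands. Each sequence is the 100 bases before the annotated start, 5′ to 3′ on the gene's strand, with matches in capitals. None of these stretches touches an exon annotated in GENCODE M21.
Adam8 (chr7:139992563-139992662, minus strand): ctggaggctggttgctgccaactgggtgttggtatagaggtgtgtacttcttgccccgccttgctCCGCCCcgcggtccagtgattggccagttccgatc
Mmp8 (chr9:7558329-7558428, plus strand): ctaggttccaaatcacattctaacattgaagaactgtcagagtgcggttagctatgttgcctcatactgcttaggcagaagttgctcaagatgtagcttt
Timp1 (chrX:20870066-20870165, plus strand): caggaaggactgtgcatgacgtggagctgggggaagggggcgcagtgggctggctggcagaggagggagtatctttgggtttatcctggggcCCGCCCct
Mmp13 (chr9:7272414-7272513, plus strand): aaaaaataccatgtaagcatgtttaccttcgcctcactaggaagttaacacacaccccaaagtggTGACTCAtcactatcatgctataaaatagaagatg
Mmp3 (chr9:7445722-7445821, plus strand): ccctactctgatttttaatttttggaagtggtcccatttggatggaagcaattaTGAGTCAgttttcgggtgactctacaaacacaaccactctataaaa

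The capitals in Adam8 and Timp1 are GC box matches on the reverse strand, and those in Mmp13 and Mmp3 are AP-1 matches. The AP-1 match begins at position -35 in Mmp13 and at -46 in Mmp3, counted back from the start site. Mmp8 holds neither motif in this window. Mmp12 and Mmp27 also lie in the cluster with Mmp8, and their sequences are not printed. Over the 250 bases searched, Mmp27 held neither motif. Mmp12 held an AP-1 match at -44 before its start site at 7347374 and neither motif before its start site at 7344397. Over all members with a window, 4 of 35 (11.4%) held an AP-1 match, against 7.82% of the 27025 genes in the table. A GC box was found in 20 of the 35 (57.1%), against 35.4% of all genes. AP-1 and GC box matches did not overlap in any member's window. These are matches of letters, and binding was not measured.

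Levels were compared between genes as RPKM, reads scaled to the length of the merged exons and to the depth of the library. In the vehicle ganglia the inhibitors stood at the top. Timp2 was at 142, 152 and 142 RPKM in vehicle replicates 1, 2 and 3, above every library of the next gene. Timp3, the inhibitor that stays bound to the matrix, followed with 70.7, 59.6 and 51.7 RPKM. Its libraries overlapped those of Adam10, a sheddase that cuts Notch and the amyloid precursor protein, at 59.5, 49.3 and 45.1 RPKM. Timp2 and Timp3 together made up 33.9% to 38.9% of the summed RPKM of all 57 members in vehicle. Timp1 was far lower, at 5.09 ± 1.30 RPKM (SD, n = 3), and Timp4 lower still, at 0.328 ± 0.125 RPKM.

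Below these, the membrane-bound Adam9 (31.4 ± 1.20 RPKM; SD, n = 3) and the gelatinase Mmp2 (29.7 ± 3.47 RPKM) were next and did not separate. Mmp15, a membrane-type MMP, was at 24.2 ± 1.44 RPKM. Adam22, Adam23 and Adam11, which are non-catalytic, followed in a group whose libraries overlapped, at 19.1 ± 3.88, 17.1 ± 3.87 and 15.7 ± 2.81 RPKM. Adam22 and Adam23 are receptors for secreted LGI proteins, and Adam22 is needed for LGI4-driven myelination of peripheral nerves. The highest ADAMTS genes were Adamts1 (12.3 ± 1.87 RPKM), the aggrecanase Adamts5 (9.94 ± 0.579 RPKM) and the procollagen-processing Adamts2 (9.79 ± 2.21 RPKM). The libraries of Adamts2 overlapped those of both others, and every Adamts1 library was above every Adamts5 library. Adam17, the TNF-releasing sheddase, was at 7.04 ± 1.03 RPKM.

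At least 1 RPKM in vehicle was reached by 14 of 17 Mmp, 10 of 17 Adam, 12 of 19 Adamts and 3 of 4 Timp members. The median member was at 2.35 RPKM. The lowest was Adamts13, the protease of von Willebrand factor, at 0.0214 RPKM, with 2 reads in each vehicle library. With few exceptions neighbours in the order could not be separated, since only 6 of the 56 steps had no overlap between libraries. The length of the longest transcript in place of the merged exons left Timp2, Timp3 and Adam10 in the first 3 places and moved Adam23 from place 8 to place 4. With that length Timp3 had a mean of 105 RPKM and Adam10 of 54.9 RPKM, so the overlap of these 2 depended on the merged-exon length.

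**Figure D1:**
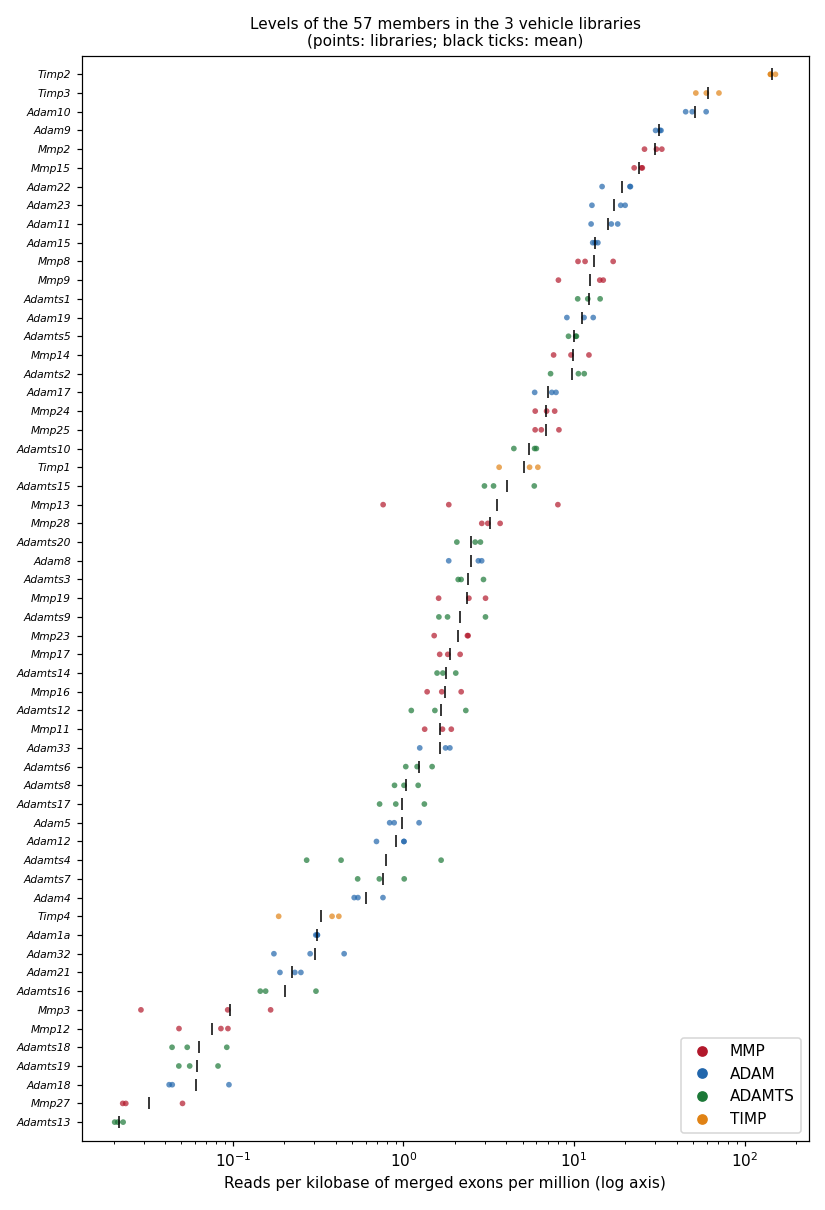
Levels of the 57 members in vehicle ganglia, as RPKM on a log axis, with 1 point per library and a black tick at the mean of 3. Timp2 stands alone at the top with 142 to 152 RPKM, and the points of Mmp13 and Adamts4 are spread widely because vehicle replicate 3 is high.

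The share of all gene reads that fell in members did not differ beyond the spread between libraries. It was 0.328%, 0.323% and 0.346% in vehicle and 0.360%, 0.351% and 0.326% in vincristine, and the ranges overlapped (exact permutation test, two-sided p = 0.3; the smallest p that 3 against 3 allows is 0.1). Of the 57 members 53 passed the count filter of the main edgeR test, and Mmp3, Mmp27, Adam18 and Adamts13 did not; DESeq2 tested those 4 and called none of them (adjusted p = 0.722 to 0.993). By edgeR 1 member rose and 0 fell at an adjusted p under 0.05. Over all genes 0.359% were called by edgeR in either direction, 0.293% higher and 0.0658% lower. DESeq2 called 4 members, each higher, beside 2.84% of all genes it tested, 2.44% higher and 0.402% lower. Without adjustment, at p under 0.05, edgeR had 6 members higher and 0 lower, beside 11.4% of all genes, 8.1% higher and 3.27% lower. The groups did not overlap in 5 members, each higher in vincristine, beside 11.5% higher and 9.51% lower of all genes. The 5 were Mmp8, Mmp9, Adam8, Mmp16 and Timp1, and their share among the 53 was not above that background. The remaining member of the 6 with an unadjusted p under 0.05 was Mmp19, a secreted MMP named after its values were seen, at 10.7, 5.68 and 8.55 CPM in vehicle against 16.1, 12.5 and 10.52 CPM after vincristine (edgeR adjusted p = 0.416).

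The members' median log2 fold change was 0.08, beside -0.0033 for all genes tested, and 0.0051 without vincristine replicate 1. Positive values were found for 33 of the 53, against 49.3% of all genes tested, and for 28 without that library. By family, 13 of 15 tested Mmp, 8 of 16 Adam, 9 of 18 Adamts and 3 of 4 Timp genes were positive. For Mmp the 13 of 15 was also found with the other 2 scalings and without vincristine replicate 1. Without that library they were not the same genes. Mmp2 turned to -0.08, Mmp15 to 0.05 and Mmp24 to 0.0064, and not every gene that changed sign is listed here. The count did not hold without vehicle replicate 2, where Mmp2, Mmp14, Mmp15 and Mmp24 were at -0.02, -0.05, -0.11 and -0.20 by edgeR. For Adamts the count was 8 with median ratio scaling, and it was 4 of 18 without vincristine replicate 1. The 95% interval of the fold change lay within 1 log2 unit of 0, a change of less than 2-fold, for 32 of the 53 tested members, and for 76.4% of all genes.

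**Figure D2:**
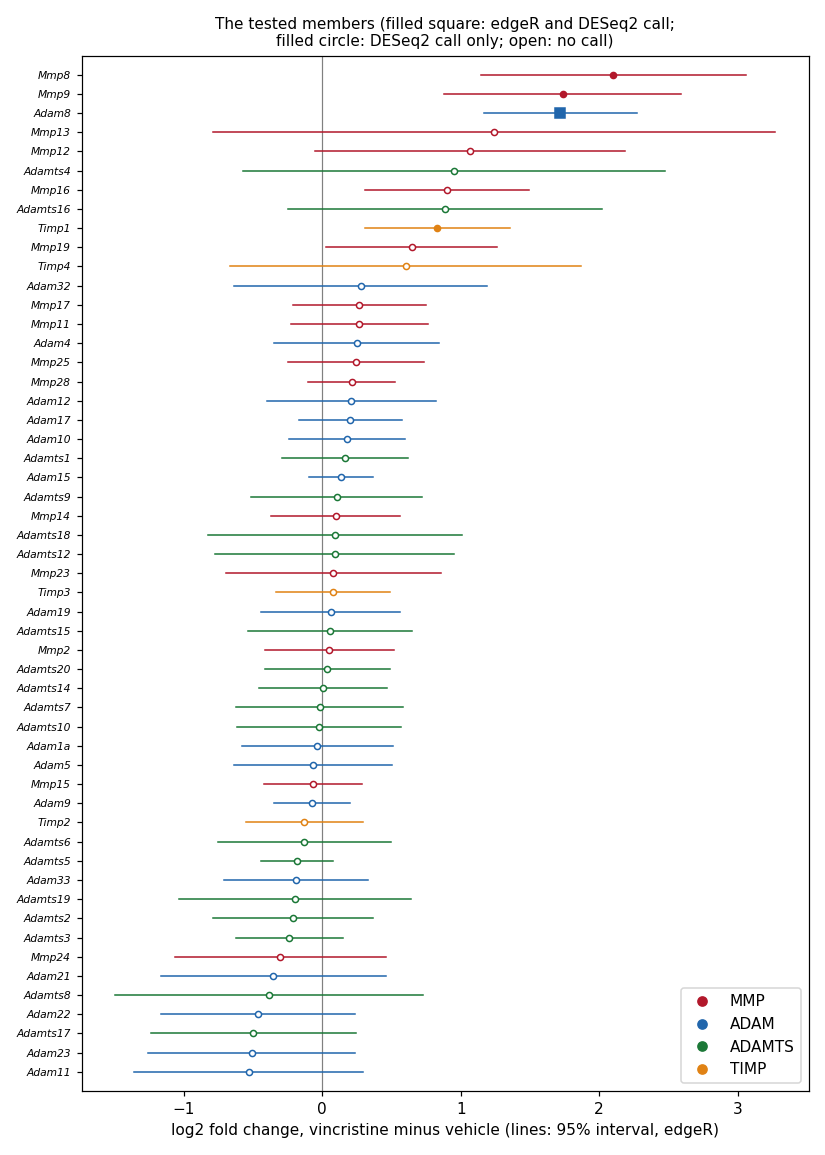
Log2 fold changes of the 53 tested members, vincristine minus vehicle, with their 95% intervals from edgeR, coloured by family. Adam8 (square) is the edgeR call, Mmp8, Mmp9 and Timp1 (filled circles) are called by DESeq2 alone, and the intervals of Mmp13 and Adamts4 are wide and cross 0.

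Adam8 encodes a sheddase known from myeloid cells and was the member called by both methods. It was at 13.3, 8.55 and 12.7 CPM in vehicle replicates 1, 2 and 3 and at 47.9, 29.8 and 36.6 CPM in the vincristine replicates. The lowest vincristine library was above the highest vehicle library. Its log2 fold change was 1.72 ± 0.23 (SE; edgeR adjusted p = 0.0457; DESeq2 adjusted p = 1.68e-08). The edgeR call lay close to the threshold. It was lost with median ratio scaling (edgeR adjusted p = 0.0501), with upper quartile scaling (edgeR adjusted p = 0.0682) and with a stricter count filter (edgeR adjusted p = 0.0570). Without each library in turn the fold change stayed between 1.53 and 1.88. The edgeR adjusted p was 0.00951 without vincristine replicate 1 and 0.0830 to 0.237 without any other library, while DESeq2 called Adam8 in all 6 such fits. Adam8 spans chromosome 7 from 139978932 to 139992562 on the minus strand. An exon of the gene model Gm16201 overlaps it on the other strand, and how the counting treated strand is not stated in the labels.

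Mmp8, the neutrophil collagenase, was at 41.1, 25.6 and 28.1 CPM in vehicle and at 227, 94.1 and 86.6 CPM in vincristine. Every vincristine library was above every vehicle library, and replicate 1 was more than double the other two. The log2 fold change was 2.10 ± 0.41 (SE), called by DESeq2 (adjusted p = 1.21e-05) and not by edgeR (adjusted p = 0.125). Without vincristine replicate 1 the value was 1.52 and edgeR called it (adjusted p = 0.00951). Per kilobase, Mmp8 was at 13.0 ± 3.43 RPKM in vehicle, near the gelatinase Mmp9, and at 93.5, 38.8 and 35.7 RPKM in the vincristine libraries.

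Mmp9, the gelatinase stored in neutrophil granules, was at 50.1, 28.7 and 52.5 CPM in vehicle and at 224, 103 and 110.2 CPM in vincristine. Here too the groups did not overlap and vincristine replicate 1 was highest. The log2 fold change was 1.74 ± 0.36 (SE), called by DESeq2 (adjusted p = 0.00017) and not by edgeR (adjusted p = 0.154). Without vincristine replicate 1 it was 1.29 and passed by edgeR (adjusted p = 0.0446). DESeq2 called Mmp8 and Mmp9 in all 6 fits that left out a library. Mmp2, the other gelatinase, was at 110.2, 87.2 and 102 CPM in vehicle and at 122, 114 and 75.3 CPM in vincristine. Those ranges overlapped, and the 95% interval of its log2 fold change ran from -0.41 to 0.52 (edgeR adjusted p = 0.945).

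Neutrophil markers moved beside Mmp8, Mmp9 and Adam8. All 11 of the listed markers found in the tables were tested, and their log2 fold changes ran from 1.16 to 2.18 with a median of 2.02; DESeq2 called 9 of them and edgeR 0, with 10 at an unadjusted p under 0.05. Without vincristine replicate 1 the median was 1.28 and edgeR called 7 of the 11. Against the vehicle mean, on a log2(CPM + 0.1) scale, the marker medians were 2.84, 1.32 and 1.44 in vincristine replicates 1, 2 and 3. On a log2 CPM scale Mmp8 was at 2.84, 1.57 and 1.45 above the vehicle mean in the same libraries, Mmp9 at 2.36, 1.24 and 1.33, and Adam8 at 2.05, 1.37 and 1.66. Macrophage markers, 9 tested, had a median log2 fold change of 0.64 (0.47 without vincristine replicate 1), with summed levels of 352 to 403 CPM in vehicle and 488 to 685 CPM in vincristine. Erythroid markers, 6 tested, had medians of 2.36, 1.20 and 1.43 in vincristine replicates 1, 2 and 3 on the log2(CPM + 0.1) scale. The order of libraries was thus not particular to the neutrophil markers. The part of neutrophils, macrophages and erythroid cells in the values of Mmp8, Mmp9 and Adam8 was not tested. Mmp25, named after its values were seen, is a membrane-anchored MMP also known from neutrophils. It was at 31.4, 43.2 and 34.1 CPM in vehicle and at 31.4, 44.3 and 52.7 CPM in vincristine, and the groups overlapped (edgeR adjusted p = 0.696).

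Timp1, the TIMP known to be induced by inflammation and injury, was at 4.87, 3.23 and 5.45 CPM in vehicle and at 8.98, 7.47 and 7.71 CPM in vincristine. Every vincristine library was above every vehicle library, and the 3 lay close together. The log2 fold change of 0.83 ± 0.22 (SE) was called by DESeq2 (adjusted p = 0.0487) and not by edgeR (adjusted p = 0.225). The DESeq2 call was lost without any one of the 6 libraries (DESeq2 adjusted p = 0.0712 to 0.479). Timp2 and Timp3, the abundant inhibitors, were at 565 ± 22.2 and 494 ± 77.5 CPM in vehicle and at 516 ± 94.9 and 522 ± 52.96 CPM in vincristine (SD, n = 3 each). Their 95% intervals on the log2 scale were -0.55 to 0.29 and -0.34 to 0.49, so a doubling or halving of either lay outside them. Timp4 was low and uneven, with 5.57 CPM in vincristine replicate 1 and 1.09 to 2.46 CPM in the other 5 libraries. Timp1, Timp3 and Timp4 each lie inside a synapsin gene on the opposite strand (Syn1, Syn3 and Syn2). For Timp3 and Timp4 an exon of the synapsin gene overlaps, which makes their counts less certain.

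Among the membrane-type MMPs, only Mmp16 had groups that did not overlap. It was at 11.9, 14.5 and 18.9 CPM in vehicle and at 19.8, 28.7 and 35.8 CPM in vincristine. Vincristine replicate 1 was barely above vehicle replicate 3. It was the lowest library of its group here, as it was in Mmp15, Mmp17, Mmp24 and Mmp25. The log2 fold change was 0.90 ± 0.25 (SE), passed by neither method with all libraries (edgeR adjusted p = 0.246; DESeq2 adjusted p = 0.0559). Without vincristine replicate 1 it was 1.09 and passed by both (edgeR adjusted p = 0.0355; DESeq2 adjusted p = 7.93e-05). DESeq2 also called it without vehicle replicate 3 (adjusted p = 0.0406). Mmp14, which activates the Mmp2 precursor at the cell surface, was at 58.4 ± 13.9 and 62.5 ± 9.82 CPM in vehicle and vincristine (SD, n = 3 each). Mmp15 was at 130.5 ± 7.79 and 124 ± 22.2 CPM, and Mmp17, held by a lipid anchor, at 12.4 ± 1.74 and 14.8 ± 3.52 CPM (SD, n = 3 each). These 3 did not pass by edgeR (adjusted p = 0.885, 0.891 and 0.661).

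**Figure D3:**
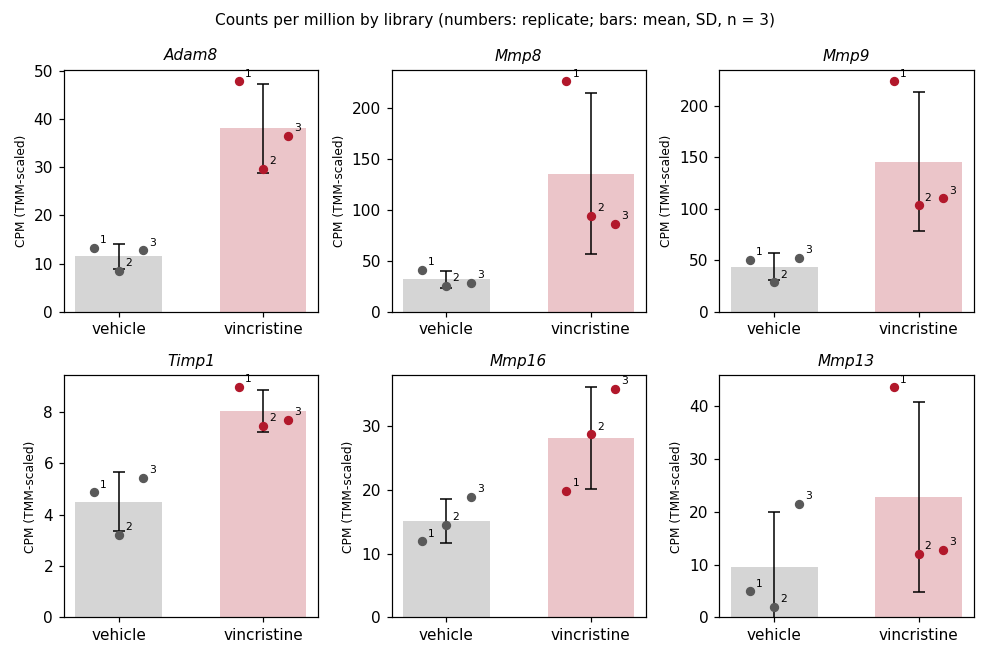
TMM-scaled CPM of 6 members by library, with the replicate number beside each point and bars for the mean and SD of 3; the SD of Mmp13 in vehicle reaches below the axis. In Adam8, Mmp8, Mmp9, Timp1 and Mmp16 the groups do not overlap, and in Mmp13 vehicle replicate 3 (21.5 CPM) is above vincristine replicates 2 and 3.

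The collagenase Mmp13 and the aggrecanase Adamts4 were set by single libraries. Mmp13 was at 4.93, 2.03 and 21.5 CPM in vehicle and at 43.5, 12.1 and 12.8 CPM in vincristine. Its log2 difference, 1.24 ± 0.86 (SE; edgeR adjusted p = 0.634), became 2.70 without vehicle replicate 3 and 0.38 without vincristine replicate 1. Adamts4 was at 2.07, 1.30 and 8.00 CPM in vehicle and at 9.60, 8.25 and 4.47 CPM in vincristine. Its value of 0.95 ± 0.65 (SE; edgeR adjusted p = 0.628) became 2.13 without vehicle replicate 3. Without that library DESeq2 called both (adjusted p = 0.00171 for Mmp13 and 0.000515 for Adamts4) and edgeR neither (adjusted p = 0.513 and 0.339). Skeletal muscle markers, a sign of tissue around the ganglion, were also uneven. Their summed level was 190, 280 and 939 CPM in vehicle replicates 1, 2 and 3, highest where Mmp13 and Adamts4 were highest. In vincristine it ranged from 514 CPM in replicate 1, where both genes were highest, to 2231 CPM in replicate 2. Fibroblast markers, 6 in number, were summed at 5672, 4183 and 7218 CPM in vehicle and at 6809, 5519 and 3412 CPM in vincristine. This sum was thus highest in the same library of each group as the 2 genes, but in vehicle that rested on Col1a1 and Col1a2. Pdgfra, Dcn, Lum and Dpt were highest in vehicle replicate 1. As a median over the list, relative to the vehicle mean, vehicle replicates 1, 2 and 3 stood at 0.23, -0.37 and 0.03 (log2). The part of either cell type in the spread of Mmp13 and Adamts4 was not tested.

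Mmp8, Mmp13, Mmp12, Mmp3 and Mmp27 lie on chromosome 9 (GRCm38) between positions 7272514 and 7581885, all on the plus strand, each within 200 kb of the next. Their levels differed widely. In vehicle Mmp8 was at 13.0 RPKM and Mmp13 at 3.55 RPKM, while Mmp12, Mmp3 and Mmp27 were at 0.0757, 0.0963 and 0.0323 RPKM. Mmp12, the macrophage elastase, named after its values were seen, had 31 reads in all in vehicle and 70 in vincristine, and it did not pass (log2 1.07, edgeR adjusted p = 0.461). Mmp3 had 3, 1 and 6 reads in vehicle and 1, 9 and 1 in vincristine, and Mmp27 no more than 5 reads in any library. Both lay below the count filter of the main test, and DESeq2, which kept them, called neither (adjusted p = 0.993 for Mmp3 and 0.722 for Mmp27). Members also neighboured each other in the pairs Adamts1 and Adamts5 on chromosome 16, Adamts8 and Adamts15 on chromosome 9, and Adam4 and Adam21 on chromosome 12, and in a group of Adam18, Adam5, Adam32 and Adam9 on chromosome 8. None of the members in these pairs and that group was called.

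Adam11, Adam22 and Adam23, non-catalytic ADAMs found mainly on neurons, were lower in vincristine replicate 1 than in any vehicle library. In vincristine replicates 2 and 3 they lay within the vehicle range. Adam22 was at 210, 307 and 305 CPM in vehicle and at 120, 217 and 258 CPM in vincristine. Adam23 was at 228, 336 and 357 CPM in vehicle and at 126, 233 and 287 CPM in vincristine. Adam11 was at 71.4, 102 and 93.7 CPM in vehicle and at 29.7, 79.6 and 75.2 CPM in vincristine. In each of these genes replicate 1 was lowest in both groups, and the groups overlapped. The log2 fold changes were -0.46 ± 0.30, -0.51 ± 0.32 and -0.53 ± 0.35 (SE), and none passed by edgeR (adjusted p = 0.604, 0.596 and 0.615). Mmp24, a membrane-type MMP of the nervous system, was at 27.7, 36.1 and 32.3 CPM in vehicle and at 13.1, 30.4 and 34.0 CPM in vincristine. Its log2 difference, -0.30 ± 0.32 (SE; edgeR adjusted p = 0.756), was 0.0064 without vincristine replicate 1.

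Of 15 sensory neuron markers 13 had a negative log2 fold change, 0 passed by edgeR or DESeq2, and 1 was lower at an unadjusted p under 0.05. In 6 of the 15 every vincristine library was below every vehicle library, against 9.51% of all genes. The median log2 fold change of the 15 was -0.46, and -0.16 without vincristine replicate 1. As medians over the list, vincristine replicates 1, 2 and 3 stood at -1.48, -0.23 and -0.12 relative to vehicle. The part of the neuronal share in the values of Adam11, Adam22, Adam23 and Mmp24 was not tested. The 9 LGI ligands and complex partners of Adam22 and Adam23 had a median of -0.21, with 0 called by either method. Among them Lgi3 was at 64.0 ± 17.2 and 38.7 ± 7.31 CPM, and Lgi4, a Schwann cell and satellite glia ligand of Adam22, at 79.9 ± 9.47 and 109 ± 21.4 CPM in vehicle and vincristine (SD, n = 3 each). Their groups did not overlap, and neither passed (edgeR adjusted p = 0.314 for Lgi3 and 0.380 for Lgi4).

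**Figure D4:**
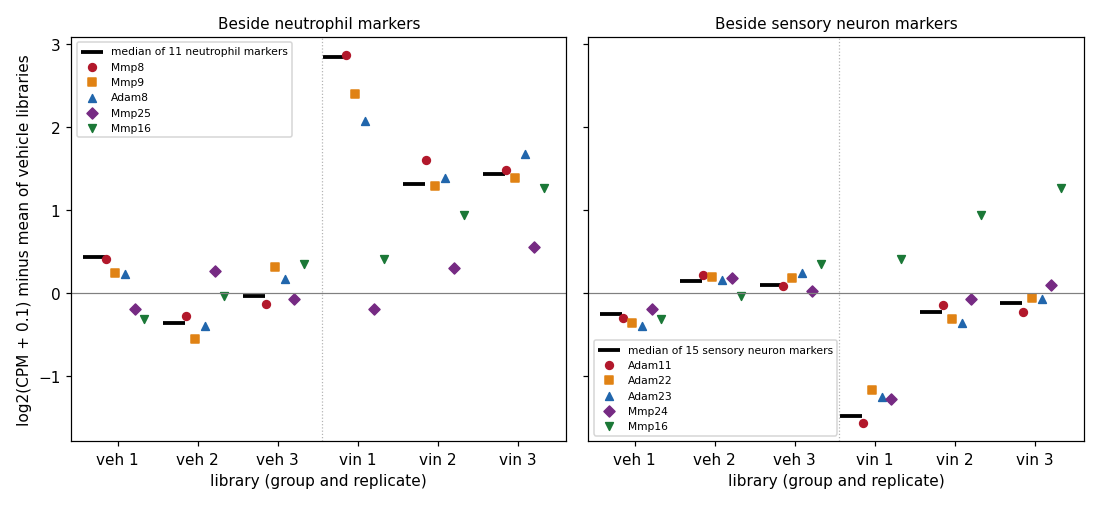
Members beside the median of neutrophil markers (left, 11 genes) and of sensory neuron markers (right, 15 genes) in each library, as log2(CPM + 0.1) relative to the vehicle mean. In vincristine replicate 1 the neutrophil median is 2.84 and the neuron median -1.48, and Mmp16, drawn in both panels, is lowest in that library among the vincristine libraries while the neutrophil median is highest there.

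Of the 8 ADAMs grouped here as catalytic, apart from those known mainly from testis, Adam8 was the one that passed either test. Adam10 had means of 252 ± 36.3 (vehicle) and 285 ± 49.1 CPM (vincristine; SD, n = 3 each), with a 95% interval of -0.24 to 0.59 on the log2 scale. Adam17 was at 50.4 ± 7.37 and 58.1 ± 9.15 CPM, with an interval of -0.17 to 0.58; an exon of Iah1 overlaps it on the other strand. Adam9 was at 129 ± 4.93 and 123 ± 12.2 CPM, with an interval of -0.35 to 0.20. Adam15, which binds integrins, was at 81.8 ± 2.87 and 89.9 ± 5.56 CPM, and Adam19, which can release neuregulin, at 79.4 ± 13.9 and 82.6 ± 20.2 CPM. Each of these intervals, and those of Adam15 and Adam19 (-0.10 to 0.37 and -0.44 to 0.56), lay within 1 log2 unit of 0. The 6 ADAMs known mainly from testis (Adam1a, Adam4, Adam5, Adam18, Adam21 and Adam32) had at most 0.983 RPKM in vehicle, and none was called.

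No ADAMTS member was called by edgeR or DESeq2, and 0 of the 18 tested had an unadjusted p under 0.05 by edgeR. Their log2 fold changes ran from -0.50 to 0.95. Adamts1 had means of 65.0 ± 9.90 (vehicle) and 72.8 ± 16.6 CPM (vincristine), Adamts5 at 107 ± 6.25 and 94.5 ± 7.61 CPM, and Adamts2 at 91.4 ± 20.6 and 79.0 ± 20.9 CPM (SD, n = 3 each). Adamts20 was at 22.5 ± 3.61 and 23.2 ± 4.83 CPM. Their intervals on the log2 scale were -0.29 to 0.62, -0.44 to 0.08, -0.79 to 0.37 and -0.42 to 0.49. Mmp28, a secreted MMP, was at 12.5 ± 1.61 and 14.5 ± 0.522 CPM, with an interval of -0.10 to 0.53.

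Genes that work with these proteases were read from lists chosen for their function. Of 26 regulators (convertases, iRhoms, tetraspanins, SPOCK proteins and others) 25 were tested, edgeR called 0, DESeq2 called 1 higher and 1 lower, and the median log2 value of the list was 0.04. At an unadjusted p under 0.05 edgeR had 2 of them higher and 3 lower, against 8.1% and 3.27% of all genes. By DESeq2 2.44% of all genes were called higher and 0.402% lower. Spock3, a secreted proteoglycan, was at 79.8, 104 and 96.3 CPM in the vehicle replicates and at 38.4, 55.4 and 55.7 CPM in the vincristine replicates, without overlap (log2 -0.90; DESeq2 adjusted p = 0.00113; edgeR adjusted p = 0.132). Tspan33, a tetraspanin that guides Adam10 and is also known from red cell development, was at 13.4 ± 3.02 and 37.0 ± 19.1 CPM (DESeq2 adjusted p = 0.00461; edgeR adjusted p = 0.201). Erythroid markers, 6 in number, were summed at 2137 to 3581 CPM in vehicle and 4137 to 10820 CPM in vincristine; their part in the value of Tspan33 was not tested. Rhbdf2, an iRhom that carries Adam17 to the surface, was at 11.01 ± 1.37 and 17.2 ± 2.97 CPM and passed by neither method (edgeR adjusted p = 0.219; DESeq2 adjusted p = 0.0640).

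Of 33 membrane proteins known as shed substrates 31 were tested, and 25 had a positive log2 fold change, against 49.3% of all genes, with a list median of 0.29. By edgeR 0 were called; 10 had an unadjusted p under 0.05, each of them higher, against 8.1% of all genes. The neutrophil and macrophage markers, whose values are given above, were higher in the same libraries, and Csf1r is on both this list and the macrophage list. The part of these cell types in the values of this list was not tested. DESeq2 called 2 of the list, Sdc1 and Tnf, each higher, against 2.44% of all genes. Sdc1 (syndecan-1) was at 38.2, 31.8 and 36.9 CPM in vehicle and at 49.2, 77.5 and 101 CPM in vincristine (DESeq2 adjusted p = 0.00489; edgeR adjusted p = 0.182). Tnf, the cytokine released by Adam17, was at 0.921 ± 0.337 and 2.54 ± 0.744 CPM (DESeq2 adjusted p = 0.0316; edgeR adjusted p = 0.1999). Of 20 matrix substrates 0 were called by either method and 1 was higher at an unadjusted p under 0.05, with a list median of -0.02. Vcan (versican), cut by several ADAMTS enzymes, was at 55.0 ± 10.7 and 80.2 ± 21.6 CPM (SD, n = 3 each; edgeR adjusted p = 0.438).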

How the data were processed

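The authors deposited raw read counts per gene symbol, 1 table per pooled sample of stranded total RNA sequenced as single reads of 75 nucleotides, per the labels' protocols and design text. STAR, SAMtools and HTSeq with mm10 (GRCm38) were used, per the submitters' processing notes; no source used here gives versions, annotation or strand setting. Summary lines were left out; 31.1% to 40.5% of tallied alignments were not unique and 14.8% to 17.03% fell outside genes, except 24.8% in vincristine replicate 1. A count of 0 allows 0.114 to 0.242 CPM (3 counts; counting error only).

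The main test was edgeR 4.0.16, run in R 4.3.3 (genes kept by filterByExpr, minimum count 10, leaving 16706 genes; TMM; robust quasi-likelihood, two-sided; Benjamini-Hochberg over all genes; 4 residual degrees of freedom). An SE is the fold change divided by the square root of F, and 95% intervals use the t quantile of that fit. DESeq2 1.42.0 was an alternative, with limma 3.58.1, other scalings, filters, a replicate block, an adjusted threshold of 0.1 and each library left out in turn; DESeq2 with a library left out was added after seeing the data. Both tools were tested on simulated counts. CPM use TMM-scaled sizes. Lengths and positions come from GENCODE M21 (GRCm38), matched for all 57 members.

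Members and lists were chosen with earlier results of these data known. Members were named if called by edgeR or DESeq2, among the 3 highest of a family by RPKM, among the 3 largest changes of a family whose groups did not overlap and whose mean was at least 0.2 CPM, or if on a fixed list; from each partner list up to 3 with the smallest p. Other members named were chosen after their values were seen. Replicates of a group were not copies of each other (chi-square per degree of freedom of 13.3 or more). Groups and replicate numbers came from the sample titles; the table of vehicle replicate 3 carries the number 4 in its name.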

Additional observations from a re-analysis of the deposited data

How the results depend on the processing

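The number of members called was 1 by edgeR, 4 by DESeq2 (Adam8, Mmp8, Mmp9 and Timp1), 4 by limma-voom with sample quality weights (Adam8, Mmp8, Mmp9 and Mmp16), 0 by limma-voom, and 0 by edgeR with median ratio scaling, upper quartile scaling or a filter of 1 CPM in 3 libraries. Over all genes the counts were 60 by edgeR, 551 by DESeq2, 476 with quality weights, 99 with no low-count filter and 125 at a threshold of 0.1. Leaving out 1 library gave 0 to 346 genes and 0 to 4 members by edgeR, and 206 to 600 genes and 3 to 6 members by DESeq2. By edgeR 346 genes and 4 members (Adam8, Mmp8, Mmp9 and Mmp16) were called without vincristine replicate 1. Leaving out vincristine replicate 2 or 3 left 6 or 18 genes, and leaving out a vehicle library left 0, where 1063 to 1462 genes had an unadjusted p under 0.05.

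The replicate numbers share only a number: same-numbered deviations correlated at 0.43, 0.25 and -0.09, and the table of vehicle replicate 3 carries the number 4 in its name, so the third pair rests on the titles alone. With the replicate block edgeR called 261 genes and 4 members (Adam8, Mmp8, Mmp9 and Mmp16). The median fold change of tested members was -0.02 to 0.20 without each library in turn, against 0.08. With longest-transcript lengths the median member was at 3.27 RPKM, against 2.35. Among named members Mmp15 turned to 0.10 with quality weights, from -0.07. Leaving out 1 library, by edgeR or DESeq2, turned the sign of 11 uncalled named members: Mmp2 (-0.088 to 0.24), Mmp14 (-0.064 to 0.28), Mmp15 (-0.22 to 0.048), Mmp24 (-0.58 to 0.0064), Adam9 (-0.14 to 0.0051), Adam19 (-0.12 to 0.24), Adamts1 (-0.019 to 0.32), Adamts20 (-0.11 to 0.20), Timp2 (-0.25 to 0.013), Timp3 (-0.041 to 0.20) and Timp4 (-0.13 to 0.92). The cause was not tested. Depth limits the 4 members below the count filter most.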
